A study of Mus musculus and Homo sapiens with 4 samples.

Results

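The 8 genes described here encode receptors for steroid hormones and their closest orphan relatives: the oestrogen receptors ESR1 (ERα) and ESR2 (ERβ), the progesterone receptor PGR, the glucocorticoid receptor NR3C1, the mineralocorticoid receptor NR3C2, and the oestrogen-related receptors (ERRs) ESRRA, ESRRB and ESRRG. They were found by gene symbol among 25932 entries, an entry being a merged group of known transcripts of a gene, and each symbol stood on 1 entry. The androgen receptor is not among them. Total RNA was sequenced from VCaP (passages 5 to 6), a cell line from a prostate cancer, and from VCaP ERα, cells of that line made to overexpress ERα (passages 4 to 5), with 1 library for each. Both were grown in DMEM with serum, no hormone treatment is given for either library, and ribosomal RNA was removed before strand-specific libraries were made, which the labels call poly-A-. The ERα plasmid named in the methods is of the pcDNA3.1 type, and the number of clones behind VCaP ERα was not given. The series also holds poly-A libraries of mouse embryonic fibroblasts (MEFs) from wild-type and NEAT1 knockout (KO) C57BL/6 embryos (E13.5, passages 2 to 3), again 1 each.

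Receptors of this family are transcription factors that carry a zinc-finger DNA-binding domain and a ligand-binding domain. Steroid receptors are held ready by HSP90 chaperones until hormone binds, then form dimers on response elements in DNA and exchange corepressors for coactivators. The ERRs resemble the oestrogen receptors in sequence but are orphan receptors that natural oestrogens do not activate, and they work with PGC-1 coactivators on genes of mitochondrial energy metabolism. In breast epithelium PGR is a well-known target of ERα, whereas prostate epithelium depends mainly on androgen signalling.

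Levels are given in RPKM, reads per kilobase of an entry, scaled to the mapped reads of the library, so genes may be compared within a library. Folds are plain ratios of RPKM. The log2 ratio was formed after adding 1 to each RPKM, with VCaP ERα as the numerator. It understates differences at low RPKM, and an entry was called when its log2 ratio was above 2 or below -2. As each condition has 1 library, no spread between replicates exists, no test was made and no difference has a replicate check. In bulk RNA, fewer cells that express a gene and less RNA per cell cannot be told apart. The library labelled VCaP went against its label for prostate markers. All 8 prostate luminal markers examined (among them KLK3, KLK2, TMPRSS2, ACPP, FOLH1, HOXB13 and STEAP2) were lower there, at 0 to 8.18 RPKM and a sum of 14.8 RPKM, than in VCaP ERα, at 3.16 to 694 RPKM and a sum of 1932 RPKM, and FOLH1 was listed at 0. Of 8 luminal breast markers 5 were higher in the library labelled VCaP, among them GATA3 and KRT19, whereas AGR2 was higher in VCaP ERα (727 RPKM against 114 RPKM), with summed levels of 4079 RPKM there and 922 RPKM in VCaP ERα, and SCGB2A2 was listed at 0 there. The 6 stromal and muscle markers summed to 2.01 RPKM there and 2.48 RPKM in VCaP ERα, and the 5 leukocyte markers to 1.03 and 0.930 RPKM. Of 8 housekeeping genes 5 were lower in VCaP ERα, among them ACTB (127 RPKM against 2334 RPKM) and POLR2A (1.44 against 19.5 RPKM), and 3 were higher, among them B2M (804 against 226 RPKM). These differences move with every comparison below, and their part in the receptor differences was not tested.

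The receptor profiles of the libraries differed in composition. In the library labelled VCaP 4 receptors reached 1 RPKM, in the order ESR1, ESRRA, NR3C1 and PGR. In VCaP ERα 3 did so, in the order ESR1, ESRRA and NR3C2. ESR1 and ESRRA therefore led in both, while NR3C1 and PGR were lower and NR3C2 higher in VCaP ERα. The 8 receptors summed to 229 RPKM in VCaP ERα and to 35.3 RPKM in the library labelled VCaP. Without ESR1 the sums as deposited were 20.1 RPKM in VCaP ERα and 19.6 RPKM in the other library. That near equality depended on the scaling, since the sum was 1.6-fold higher in VCaP ERα after quantile normalization and 2.77-fold higher after upper quartile scaling. With no replicates, whether neighbours in either order differ beyond their spread could not be judged.

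**Figure D1:**
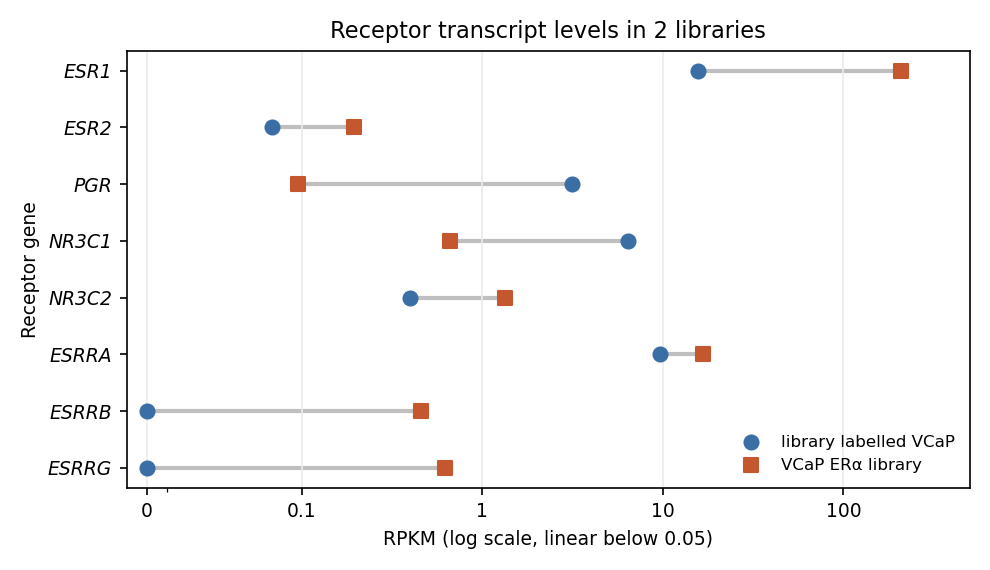
RPKM of each receptor gene in the library labelled VCaP (blue circles) and in the VCaP ERα library (orange squares), on a log axis that is linear below 0.05, with 1 library per condition and no error bars. PGR and NR3C1 lie to the left in VCaP ERα, the other 6 to the right, and ESRRB and ESRRG sit at 0 in the library labelled VCaP.

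ESR1 (hg18, chromosome 6, 152053324 to 152466101, 11 merged transcripts), the receptor that was overexpressed, had 209 RPKM in VCaP ERα and 15.7 RPKM in the library labelled VCaP. The level was 13.3-fold higher in VCaP ERα, in the direction of the label. It made up 91.2% of the summed RPKM of the 8 receptors in VCaP ERα and 44.4% in the library labelled VCaP. In the library labelled VCaP ESR1 was already above 87.1% of all entries, and in VCaP ERα above 99.6%. The entry gives 1 value for the whole gene, so transcripts of the plasmid and of the genomic locus cannot be told apart.

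ESR2 (chromosome 14, 63763504 to 63875021), whose product ERβ binds the same hormone, was near 0 in both, with 0.196 RPKM in VCaP ERα and 0.0684 RPKM in the library labelled VCaP. ESR1 exceeded ESR2 by 229-fold in the library labelled VCaP and by 1068-fold in VCaP ERα. Both folds divide by ESR2 values that have no stated precision, so their sizes are uncertain. The log2 ratio of ESR2 was 0.16 and became -0.19 after quantile normalization, so no direction is given for it. ERα was the main oestrogen receptor transcript of both libraries.

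Of the receptors for other steroids, PGR, the progesterone receptor (chromosome 11, 100405565 to 100505754), had 0.0954 RPKM in VCaP ERα and 3.14 RPKM in the library labelled VCaP. Its level was 32.9-fold lower where ESR1 was higher, and it was the lowest of the 8 receptors in VCaP ERα. Its log2 ratio was -1.92 with the pseudocount of 1, just short of -2, and -4.05 with a pseudocount of 0.1. The fold of PGR was 52.3 after quantile normalization and 12.1 after upper quartile scaling. ESR1 exceeded PGR by 5.00-fold in the library labelled VCaP and by 2192-fold in VCaP ERα. The PGR value in VCaP ERα has no stated precision, so the sizes of the folds that use it are uncertain.

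NR3C1, the glucocorticoid receptor (chromosome 5, 142637689 to 142795270), had 0.666 RPKM in VCaP ERα and 6.44 RPKM in the library labelled VCaP. It was 9.66-fold lower in VCaP ERα, with a log2 ratio of -2.16. This was the only one of the 8 below -2, and it was no longer below -2 after centring on expressed entries (-1.57) or upper quartile scaling (-1.23). NR3C2, the mineralocorticoid receptor (chromosome 4, 149219365 to 149583093), which binds aldosterone and also cortisol, went the other way. It had 1.34 RPKM in VCaP ERα and 0.397 RPKM in the library labelled VCaP, 3.38-fold higher, with a log2 ratio of 0.75. The order of these related receptors was thus exchanged. NR3C1 was 16.2-fold above NR3C2 in the library labelled VCaP and 0.497-fold of it in VCaP ERα, a comparison within each library that a common scaling factor leaves unaltered. In each library the lower of these values was below 1 RPKM and has no stated precision. With 1 library each, whether the exchange exceeds the spread at such levels could not be judged.

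Among the ERRs, ESRRA (chromosome 11, 63829620 to 63840786) had 16.7 RPKM in VCaP ERα and 9.60 RPKM in the library labelled VCaP. It was 1.74-fold higher in VCaP ERα, with a log2 ratio of 0.74, and ranged from 0.74 to 2.06 over the scalings tried. As deposited, ESRRA had the smallest fold difference among the 5 receptors that reached 1 RPKM in a library. After quantile normalization NR3C2 had a smaller one (2.73-fold against 3.02-fold for ESRRA), and after upper quartile scaling NR3C1 did (3.57-fold against 4.71-fold). Over 46 bases at its upper coordinate end it overlaps the entry HSPC152, which had 356 RPKM in VCaP ERα and 125 RPKM in the library labelled VCaP. Whether the counting used strand was not given in the sources used here, so reads of HSPC152 may enter the ESRRA value, and their part was not tested. None of the other 7 receptor entries overlapped another entry.

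ESRRB (chromosome 14, 75907479 to 76036961) and ESRRG (chromosome 1, 214743211 to 215377720), which act in stem cells and in tissues of high energy demand, were listed at 0 in the library labelled VCaP. In VCaP ERα ESRRB had 0.457 RPKM and ESRRG 0.623 RPKM. No fold is given against a listed 0. Over all entries 3607 were listed at 0 in VCaP ERα and 8757 in the library labelled VCaP. Olfactory receptor entries spanning under 1100 bases were above 0 in 101 cases in VCaP ERα and in 11 in the other library. Other nuclear receptors at 0 there had like values in VCaP ERα, among them RORB (0.582 RPKM), RXRG (0.554) and HNF4A (0.454). The rest were lower, except NR5A1 (1.08 RPKM). Whether such low values mark expression of these genes was not tested. ESRRG, at 0.623 RPKM, and NR3C1, at 0.666 RPKM, were of like level in VCaP ERα, both without a stated precision, whereas NR3C1 had 6.44 RPKM in the library labelled VCaP.

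Of the 8 receptors 6 were higher and 2 lower in VCaP ERα, against 46.6% of all entries higher and 41.2% lower, and after quantile normalization 5 were higher and 3 lower. The 6 include ESR2, ESRRB and ESRRG, which were below 1 RPKM in both libraries, and no direction is given for ESR2. Among those reaching 1 RPKM in a library, ESR1, NR3C2 and ESRRA were higher and PGR and NR3C1 lower. The median log2 ratio of the 8 was 0.62, the midpoint of ESRRB (0.54) and ESRRG (0.70), and that of all entries was 0. Those ratios of ESRRB and ESRRG depend on the pseudocount, as both were listed at 0 in the library labelled VCaP and were below 1 RPKM in VCaP ERα. ESR1 was the 1 receptor above 2, where 2.27% of all entries and 4.21% of the entries reaching 1 RPKM in either library lay. NR3C1 was the 1 receptor below -2, where 6.56% of all entries and 12.2% of those reaching 1 RPKM lay. A count of 1 of 8 in either direction is too small to set the receptors apart from these shares. Over the 9754 entries that reached 1 RPKM in each library, the median log2 ratio was -0.59, and relative to that median ESR1 stood at 4.24, NR3C2 at 1.34, ESRRA at 1.33, PGR at -1.33 and NR3C1 at -1.57. The split of calls over all entries depended on scaling: 588 were above 2 and 1701 below -2 as deposited (25.7% above), 1238 and 868 after centring (58.8%), 1003 and 997 after quantile normalization (50.2%) and 1832 and 531 after upper quartile scaling (77.5%). Over the same 9754 entries the median log2 ratio was 0.02 after quantile normalization and 0.58 after upper quartile scaling. Counts of higher and lower genes in the lists below carry these shifts. Shares among entries reaching 1 RPKM were not computed for the scalings.

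**Figure D2:**
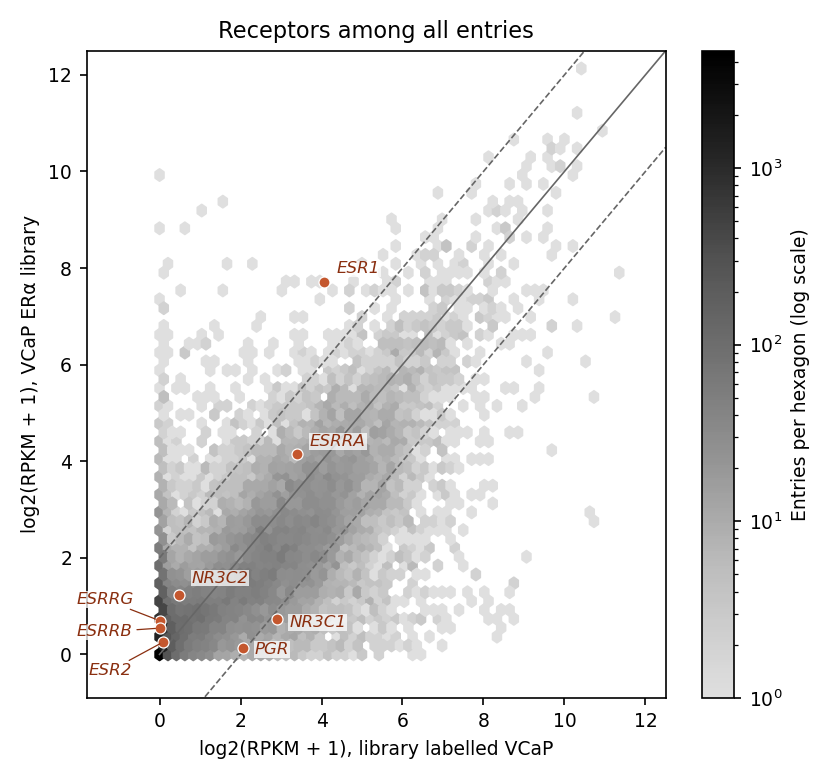
Each of the 25932 entries by log2(RPKM + 1) in the library labelled VCaP (x axis) and in the VCaP ERα library (y axis), as hexagons shaded by the number of entries on a log scale, with the 8 receptors as orange points. The solid line marks equal values and the dashed lines log2 ratios of 2 and -2. ESR1 lies above the upper dashed line, NR3C1 just below the lower one and PGR on its upper side.

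Entries most like a receptor were taken by distance over log2(RPKM + 1) in the libraries, for the 4 receptors with a mean of at least 1 RPKM. ESR1 had few neighbours: 3 entries lay within 0.5, namely HMGCS1, an enzyme of cholesterol synthesis (17.7 RPKM in the library labelled VCaP, 182 RPKM in VCaP ERα), AMD1, an enzyme of polyamine synthesis (12.6 and 196 RPKM in that order), and BRP44 (15.4 and 158 RPKM). PGR had 248 such neighbours, NR3C1 395 and ESRRA 240. Such counts depend on how many entries have a like level. By level in VCaP ERα, ESR1 ranked 111 from the top, ESRRA 1861, NR3C1 14034 and PGR 20298. Neighbours of other entries at the level of ESR1 were not counted, so its low count is not shown to be particular to it. The nearest to PGR were GABRP, PMP22 and SNORD78, to NR3C1 SLC1A1 and RASAL1, and to ESRRA C1orf31, C12orf23 and TARDBP. Likeness over 2 libraries rests on 2 values per entry.

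The other 39 nuclear receptors were split between directions, with 18 higher in VCaP ERα, 20 lower and NR0B1 listed at 0 in both. Their median log2 ratio was -0.08, with 0 above 2 and 6 of 39 below -2, beside 6.56% of all entries and 12.2% of those reaching 1 RPKM. After centring, quantile normalization or upper quartile scaling 2 were below -2, beside 3.35%, 3.84% and 2.05% of all entries in that order. For these scalings the share of entries reaching 1 RPKM was not computed. The 6 included receptors for retinoids and fatty acids: RARG (37.5 to 1.29 RPKM, log2 ratio -4.07) and PPARG (8.59 to 0.254 RPKM, -2.94) had the lowest ratios, where the value of the library labelled VCaP is given before that of VCaP ERα here and below. NR4A1, an orphan receptor encoded by an immediate early gene, had the highest (5.58 to 14.2 RPKM, 1.21), followed by NR5A1 (a listed 0 to 1.08 RPKM). After centring 25 were higher and 14 lower, after quantile normalization 18 and 21, and after upper quartile scaling 27 and 11, so no common direction is given for this list.

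Coregulators that the receptors recruit were mostly lower in VCaP ERα as deposited. Of 13 coactivators 11 were lower, 3 of them below -2 (6.56% of all entries and 12.2% of those reaching 1 RPKM were), with a median log2 ratio of -0.47, beside -0.59 for entries that reached 1 RPKM in each library. NCOA3, a p160 coactivator of ERα and other steroid receptors, differed most (148 to 3.51 RPKM, log2 ratio -5.04), followed by CARM1, an arginine methyltransferase that works with p160 proteins (18.2 to 1.08 RPKM, -3.21). The closest relatives of NCOA3 differed little, NCOA1 (an entry that also holds a PAX3/NCOA1 fusion symbol) with 8.10 and 6.89 RPKM and NCOA2 with 22.1 and 15.2 RPKM. MED1, the Mediator subunit that nuclear receptors bind, had the highest ratio (5.10 to 8.47 RPKM, 0.63). PPARGC1A and PPARGC1B, the PGC-1 partners of the ERRs, stayed below 1 RPKM in both libraries. With quantile normalization 6 coactivators were higher and 7 lower, and with centring or upper quartile scaling 8 were higher and 5 lower. Their median was -0.06 after quantile normalization and 0.61 after upper quartile scaling. Entries that reached 1 RPKM in each library then had medians of 0.02 and 0.58 in that order.

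All 9 corepressors were lower as deposited and 0 passed -2, with a median log2 ratio of -0.55, near that of expressed entries. NRIP1, which is itself induced by oestrogen, was among the lowest (50.2 to 21.5 RPKM, log2 ratio -1.19), and PHB2 (86.8 to 84.4 RPKM, -0.04) and TBL1XR1 (35.5 to 29.9 RPKM, -0.24) were highest. This direction turned with the scaling, since 6 of the 9 were higher after centring or quantile normalization and 8 after upper quartile scaling. The corepressor median was 0.16 after quantile normalization and 0.61 after upper quartile scaling. Entries that reached 1 RPKM in each library had medians of 0.02 and 0.58 in that order, so the list stayed near them.

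Of 11 receptor chaperones 6 were higher and 5 lower in VCaP ERα, with a median log2 ratio of 0.09. The HSP90 genes themselves were abundant in both, HSP90AA1 with 106 and 113 RPKM and HSP90AB1 with 329 and 229 RPKM. The immunophilin FKBP5, a cochaperone encoded by a gene that several steroid receptors induce, had the highest ratio (0.999 to 94.2 RPKM, log2 ratio 5.57), and DNAJA1 followed (50.1 to 123 RPKM, 1.28). DNAJB1 (100 to 17.0 RPKM, -2.49) and PPID (5.19 to 1.73 RPKM, -1.18) had the lowest. The near even split was that of the deposited scale, since 8 were higher and 3 lower after centring, 7 and 4 after quantile normalization, and 9 and 2 after upper quartile scaling, and DNAJB1 was not below -2 in any of these.

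Genes that answer to the receptors were listed by receptor. Of 14 oestrogen-response genes known mainly from breast cells, 13 were lower in the library with more ESR1, 7 of them below -2 (6.56% of all entries and 12.2% of those reaching 1 RPKM were), with a median log2 ratio of -1.92. The number below -2 was 3 after centring, 4 after quantile normalization and 2 after upper quartile scaling. Of all entries 3.35%, 3.84% and 2.05% were below -2, in that order, and the share of those reaching 1 RPKM was not computed for these scalings. TFF1, a secreted trefoil peptide (1596 to 7.0 RPKM, log2 ratio -7.64), and CTSD, a lysosomal protease (806 to 17.7 RPKM, -5.43), had the lowest ratios. CA12 (9.57 to 4.27 RPKM, -1.0) and PDZK1 (1.35 to 0.0579 RPKM, -1.15) had the highest of those that reached 1 RPKM. The lower levels held for 13 of the 14 after centring, all 14 after quantile normalization and 10 after upper quartile scaling. TFF1 and XBP1 are also luminal breast markers, 5 of 8 of which were lower in VCaP ERα, and the part of the marker difference in this list was not tested.

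Of 6 progestin-response genes only WNT4 (1.46 to 0.780 RPKM, log2 ratio -0.47) and S100P (413 to 1.57 RPKM, -7.33) reached 1 RPKM in a library, so little can be said of this list; 2 were higher and 4 lower, with a median log2 ratio of -0.23. Of 10 glucocorticoid-response genes 4 were higher and 6 lower in VCaP ERα, where NR3C1 was low, with a median of -0.41. The list was spread widely, with 2 genes above 2 and 1 below -2. Above 2 lay 2.27% of all entries and 4.21% of those reaching 1 RPKM. Below -2 lay 6.56% and 12.2%. Counts of this size in 10 genes are too small to set the list apart from these shares. FKBP5, also counted among the chaperones, and ZBTB16, a zinc-finger repressor (a listed 0 to 7.2 RPKM), were highest, whereas TSC22D3, which encodes the glucocorticoid-induced leucine zipper (76.1 to 2.31 RPKM, -4.54), and KLF9 (7.32 to 1.11 RPKM, -1.98) were lowest. After centring or upper quartile scaling 6 of the 10 were higher, and after quantile normalization 5.

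Of 7 genes of the mineralocorticoid pathway 4 were higher and 3 lower, with a median log2 ratio of 0.19. HSD11B2, the enzyme that shields NR3C2 from cortisol, stayed below 1 RPKM in both (0.460 and 0.744 RPKM). Of the subunits of the epithelial sodium channel, SCNN1A (19.5 to 0.779 RPKM, -3.53) was much lower, and SCNN1B and SCNN1G stayed below 0.25 RPKM. NEDD4L, the ubiquitin ligase that removes this channel, had the highest ratio (4.41 to 10.0 RPKM, 1.03), followed by SGK1, the kinase that restrains NEDD4L (2.04 to 1.48 RPKM, -0.29), among the 4 genes of the list that reached 1 RPKM in a library. The direction turned with the scaling, with 5 higher and 2 lower after centring, 2 and 5 after quantile normalization, and 6 and 1 after upper quartile scaling.

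Of 13 ERR target genes 7 were higher and 6 lower in VCaP ERα, with a median log2 ratio of 0.33, 1 above 2 and 0 below -2. Above 2 lay 2.27% of all entries and 4.21% of those reaching 1 RPKM. ACADM, an enzyme of fatty acid oxidation (1.51 to 15.2 RPKM, log2 ratio 2.69), and TFAM, the mitochondrial transcription factor (4.90 to 20.1 RPKM, 1.84), had the highest ratios. MAOB, a mitochondrial monoamine oxidase, was among the lowest (1.52 to 0.124 RPKM, -1.16). After centring or quantile normalization 9 of the 13 were higher and 4 lower, with 4 above 2. The share of all entries above 2 was then 4.77% and 3.87%, in that order. After upper quartile scaling 11 were higher and 2 lower, with 5 above 2, where 7.06% of all entries lay.

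**Figure D3:**
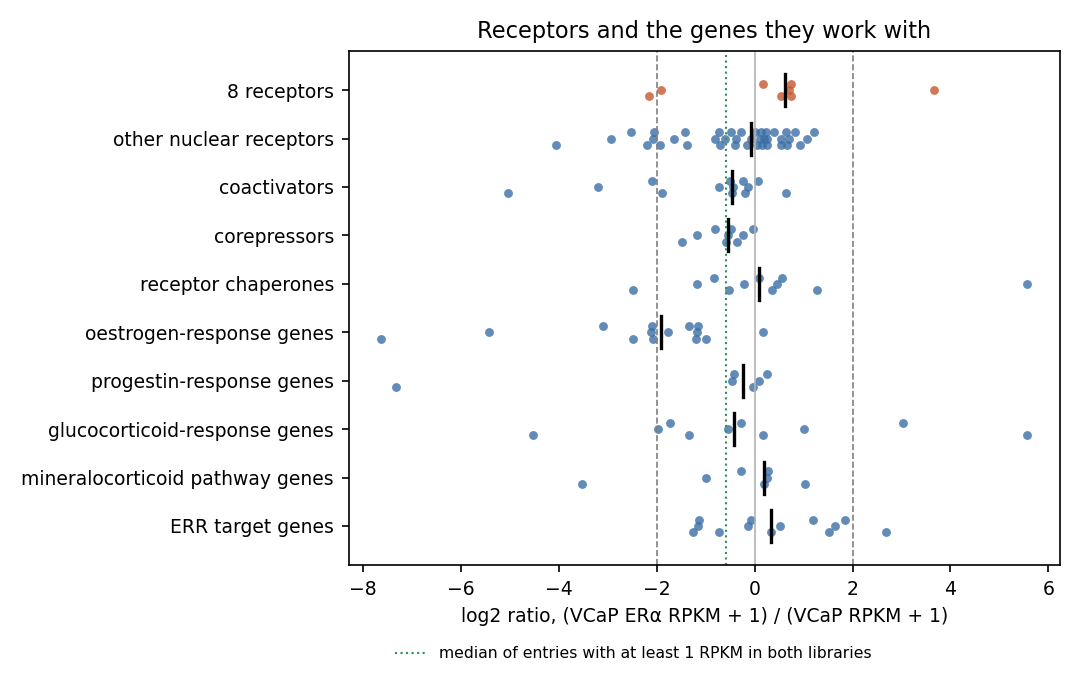
log2 ratio of VCaP ERα over VCaP, with 1 added to each RPKM, for the 8 receptors (orange) and the genes of each list (blue), 1 point per gene and a black bar at each median. Dashed lines mark 2 and -2 and the green dotted line the median of -0.59 of entries that reached 1 RPKM in each library. The oestrogen-response genes have the lowest median, -1.92.

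The directions of ESR1, PGR, NR3C1, NR3C2 and ESRRA held under each pseudocount and scaling tried, although their sizes did not. The log2 ratio of PGR ran from -4.90 with a pseudocount of 0.01 to -1.33 with centring or upper quartile scaling, the widest range of the 6 receptors above 0 in both libraries. ESR1 stayed between 3.65 and 5.03.

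**Figure D4:**
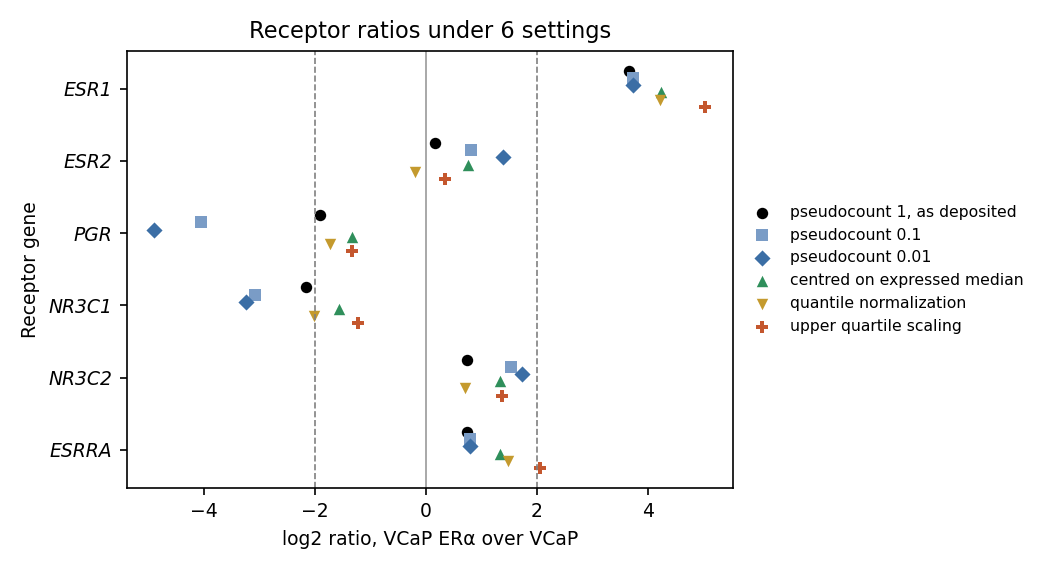
log2 ratio of VCaP ERα over VCaP for the 6 receptors listed above 0 in both libraries, with 1 symbol for each of 6 settings of pseudocount and scaling, where dashed lines mark 2 and -2. ESR1 lies above 2 in each setting and ESR2 is the receptor whose points fall on both sides of 0.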

How the data were processed

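RNA sequencing of the library labelled VCaP and of the VCaP ERα library was used, with 1 library each. The authors deposited RPKM values per entry, with coordinates and no counts. The submitters' processing notes name CASAVA 1.8 and builds hg18 and mm10; the aligner, the counting and any scaling between libraries are not given in the sources used here. Groups came from sample titles. The entry of highest mean RPKM per symbol was kept, every entry entered the background, and log2 ratios used a pseudocount of 1. No test was possible with 1 library per condition. Members, gene lists, pathway genes and marker genes were chosen with earlier results of these data known. Named were all 8 members, of each list the 2 highest and 2 lowest ratios among genes that reached 1 RPKM in either library, the 3 nearest entries of each receptor with a mean of at least 1 RPKM, the markers, and the mouse orthologues; NCOA1, NCOA2, PPARGC1A, PPARGC1B, HSP90AA1, HSP90AB1, HSD11B2, SCNN1B, SCNN1G, NR0B1 and XBP1 were added after their values were seen. A few genes that this rule would name count in their lists but are not reported here. Distance was Euclidean. A list gene was found by its symbol or an older one, and all had an entry.

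Total reads are unknown. Among entries of olfactory receptor genes spanning under 1100 bases, RPKM times kilobases recurred at 0.146 (5 of 11 entries) in the library labelled VCaP, and at 0.095 (20 of 101) and 0.111 (19 of 101) in VCaP ERα. With several steps per library, whole reads were not recovered, and no intervals or floors are given. None of 8 housekeeping genes was at 0, although their levels differed between the libraries. Alternatives were other pseudocounts (0.1, 0.01), centring, quantile normalization, upper quartile scaling, a filter at 1 RPKM, and other ways to choose an entry. A value was taken as unaltered within a factor of 1.5. The ratio calculation was tested on simulated data, made by copying 1 library and putting known ratios into some entries well above 0. Ratios at low RPKM and the choice of genes were not tested in this way. A human genome and human protein sequences were not used here. Scripts ran in Python 3.11.15 with pandas 2.3.3 and numpy 2.4.6, and plots were drawn with matplotlib 3.10.9.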

Additional observations from a re-analysis of the deposited data

How the results depend on the processing

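No paired analysis was possible because each condition has 1 library and the labels give no replicate numbers. Over 135 values of 17 results, 83 kept their direction and stayed within a factor of 1.5 of the reported value, 38 kept their direction but moved by more, and 14 turned in direction. Summing entries per symbol or taking the entry of lowest mean altered none, and each gave 17 of the 83. Neither could alter a receptor, as each receptor stands on 1 entry, and among the list genes only NR4A1 and XBP1 held 2. Nor could a filter at 1 RPKM alter the ratio of a receptor that passed it. With a pseudocount of 0.1 the log2 ratios were 0.81 for ESR2, -4.05 for PGR, -3.09 for NR3C1 and 1.54 for NR3C2, and with 0.01 they were 1.39, -4.90, -3.25 and 1.73. Both settings put 3 receptors above 2 and 2 below -2, against 1 and 1 as reported. Those above 2 were ESR1, ESRRB and ESRRG. ESRRB and ESRRG were listed at 0 in the library labelled VCaP, so their size here is set by the pseudocount. The share of all entries past 2 or -2 was not computed for these pseudocounts. The oestrogen-response median was -2.87 and -2.95. A smaller pseudocount damps low values less by its construction. Centring on the median of expressed entries adds 0.59 to each log2 ratio, giving 4.24 for ESR1, 0.75 for ESR2, -1.33 for PGR, -1.57 for NR3C1, 1.34 for NR3C2 and 1.33 for ESRRA, with 0 receptors below -2. Centred medians were 0.68 for chaperones, -1.33 for oestrogen-response, 0.78 for mineralocorticoid pathway and 0.92 for ERR target genes, and turned for other nuclear receptors (0.51), coactivators (0.12), corepressors (0.042), progestin-response (0.36) and glucocorticoid-response genes (0.18). Upper quartile scaling gave 5.03 for ESR1, -1.33 for PGR, -1.23 for NR3C1, 1.37 for NR3C2 and 2.06 for ESRRA, with 2 receptors above 2 and 0 below -2 (7.06% and 2.05% of all entries). Its medians were 1.52 for chaperones, -0.77 for oestrogen-response and 1.35 for ERR target genes, and turned for other nuclear receptors (0.40), coactivators (0.61), corepressors (0.61), progestin-response (0.21) and glucocorticoid-response genes (0.46). Quantile normalization gave 1.47 for ESRRA and turned ESR2 (-0.19), corepressors (0.16) and mineralocorticoid pathway genes (-0.10). With a filter of at least 1 RPKM in 1 library the medians were -0.72 for other nuclear receptors, -3.90 for progestin-response and -0.65 (turned) for mineralocorticoid pathway genes, which the filter cuts to fewer genes; ESR2, ESRRB and ESRRG then gave no value. Centring adds more than 0.585, the log2 of the factor taken as unaltered, so by its construction each log2 ratio moved or turned. Upper quartile scaling multiplies each ratio of RPKM by a common factor of 2.71 before the pseudocount is added. The cause of the shifts under quantile normalization was not tested. Leaving out a replicate was not possible with 1 library per condition. With total reads unknown, levels below 1 RPKM, which include ESR2, ESRRB and ESRRG in both libraries, have no stated precision.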

Other observations

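The mouse orthologues of the 8 receptors were read in the MEF libraries, 1 of wild-type and 1 of NEAT1 KO cells, on build mm10 and in RPKM of poly-A RNA. The profile of the fibroblasts held 2 expressed receptors. Esrra was at 23.3 RPKM in KO cells, 1.14-fold above the 20.5 RPKM of wild-type cells. Nr3c1, the glucocorticoid receptor, was at 9.59 RPKM in KO cells, 1.65-fold below the 15.8 RPKM of wild-type cells, with a log2 ratio of -0.67 (pseudocount of 1) beside a median of -0.06 over 10888 entries with at least 1 RPKM in both. The other 6 stayed below 1 RPKM, and are given with the wild-type value before the KO value. Esr1 had 0.144 and 0.13 RPKM, Esr2 0.136 and 0.0583 RPKM, and Pgr 0.0278 and 0.0172 RPKM. Nr3c2 had 0.0350 and 0.0494 RPKM, Esrrg 0.320 and 0.0726 RPKM, and Esrrb was listed at 0 in wild-type and at 0.00366 RPKM in KO cells. None of these differences has a replicate check. Levels in MEFs and in the VCaP libraries come from different library types and species and were not compared.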
